A study of Mus musculus with 12 samples.

Results

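The Wnt and beta-catenin pathway was followed here at the level of DNA copy number through 8 genes, Fzd8, Lgr5, Axin1, Axin2, Apc, Gsk3b, Ctnnb1 and Tcf7l2, in 12 mouse liver tumors. The genes were chosen by name, with earlier results of these data known. Every probe that carried one of these names on the array was used, which gave 18 probes among 42235 and 8 genes among 25580 autosomal genes. All mice were Mdr2-KO/FVB, that is, FVB mice that lack Mdr2 (Abcb4), the transporter that moves phospholipid into bile, so that both the tumors and the livers they were compared with carried the deletion and the ratios cannot check it. The post-PHx group held 6 tumors (4 males, 2 females) of 9-month-old mice that had undergone 70% partial hepatectomy (PHx) at 3 or 6 months of age, and the spontaneous group held 6 tumors (2 males, 4 females) of untreated mice aged 13 months (females) or 14 months (males). Each tumor was hybridized once, on 1 two-color oligonucleotide array for comparative genomic hybridization. Per the study, the reference was liver tissue without tumor, taken at a distance from the tumor in the same animal. A value is the log2 ratio of the DNA of a tumor over that of its own liver, and spread within a group is spread between tumors of different mice. The groups differed in age and in surgery together, and these cannot be told apart.

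Wnt ligands bind a Frizzled receptor and an Lrp co-receptor at the cell surface, which stops a cytoplasmic destruction complex from marking beta-catenin for degradation. Beta-catenin then enters the nucleus and acts on target genes with a Tcf or Lef factor. In the liver the pathway sets the gene program of hepatocytes around the central vein, and in human hepatocellular carcinoma it is often activated by mutations of beta-catenin or of the scaffold Axin1, which a copy-number array does not read. A copy-number ratio says nothing of the expression of a gene, and a larger share of tumor cells in a sample and more copies per cell cannot be told apart in it. Per the study, the great majority of cells on histological sections of each tumor were tumor cells. The effect of that share on the ratios was not tested.

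Because a gene had between 1 and 3 probes, its value in a tumor was the mean over a window of its own probes and the 10 probes on each side, after each array was centered on its autosomal median. The probe-to-probe standard error of these window means ranged from 0.02 to 0.14, with a median of 0.04. A gene was called gained at a window mean of at least 0.4 and lost at a mean of at most -0.4. The noise between neighboring probes ran from 0.147 in the spontaneous tumor Spon1M to 0.265 in the spontaneous tumor Spon2M. Isolated probes stood at least 1.5 from 0 on the log2 scale while both of their neighbors stayed within 0.5. Between 220 and 751 of them were found in Spon1M, Spon2M and Spon3F, against at most 30 in each of the other 9 tumors. They did not go with noise, since Spon1M had the lowest noise of the 12 arrays. Their sharing between these tumors is given at the end. The arrays lay on 3 slides, of which slide 1 held 4 post-PHx tumors, slide 3 held Spon1M to Spon4F and slide 2 held 2 tumors of each group. Tumor names end in M for male and F for female.

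The pathway genes were mostly at the copy number of the liver. Of the 96 pairs of a gene and a tumor, 5 were gained (5.21%, against 1.89% of pairs over all genes), 1 was lost (1.04% against 1.03%) and 90 were neither. All 5 gained pairs lay on chromosome 18, with 4 of them at Fzd8 and 1 at Apc, and the lost pair was Tcf7l2 in a spontaneous tumor. Lgr5, Axin1, Axin2, Gsk3b and Ctnnb1 were neither gained nor lost in any of the 12 tumors, and the other 3 of 8 genes (37.5%) compare with 25.6% of all genes called in at least 1 tumor. In the post-PHx group 4 of 48 pairs were gained (8.33%, against 2.2% over all genes) and 0 were lost, as was the case for 0% of all pairs of that group. In the spontaneous group 1 of 48 pairs was gained (2.08%, against 1.59%) and 1 was lost (2.08%, against 2.05%). Since 2 of the 8 genes share a chromosome and neighbors share probes, these shares were given no test. The choice of the genes with earlier results of these data known also limits how the shares can be read.

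**Figure D1:**
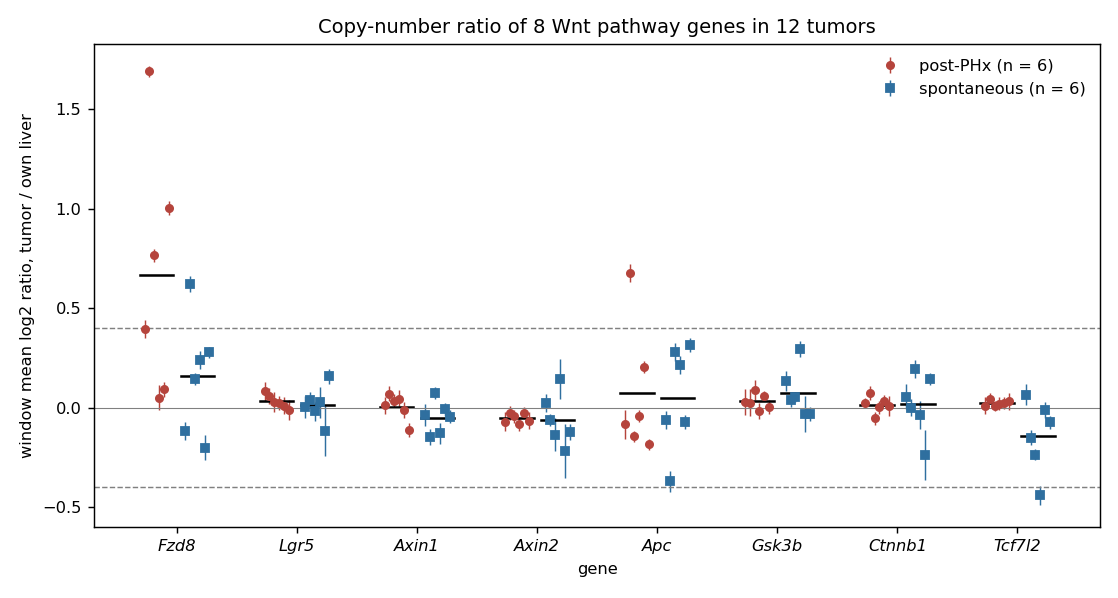
Window mean log2 ratio of each gene (x axis) in each tumor, with circles for post-PHx and squares for spontaneous tumors; error bars are the standard error over the probes of the window, black lines are group means, and dashed lines mark 0.4 and -0.4. Fzd8 and Apc are the 2 genes with points above the upper line, and Tcf7l2 the 1 gene with a point below the lower line.

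At the cell surface, Fzd8, a Frizzled receptor, had the largest spread of the 8 genes, with a standard deviation of 0.54 over the 12 tumors, larger than for 99.6% of all genes. Its only probe lies at chr18:9214935-9214981 (build NCBI36, mm8). In the post-PHx tumors the window mean was 1.69 in PHx2F, 1.004 in PHx6F, 0.77 in PHx3M, 0.40 in PHx1M, 0.09 in PHx5M and 0.05 in PHx4M. In the spontaneous tumors it was 0.62 in Spon6F, 0.28 in Spon4F, 0.24 in Spon2M, 0.14 in Spon1M, -0.12 in Spon5F and -0.20 in Spon3F. Fzd8 was thus gained in 3 post-PHx tumors and in 1 spontaneous tumor, and the groups overlapped, with PHx4M and PHx5M below 4 of the spontaneous tumors. PHx1M, at 0.396 before rounding, was just on the uncalled side of the threshold. It was called gained with 5 flanking probes, with the own probe alone and by segments, which made 4 post-PHx tumors. With the own probe alone Fzd8 was also gained in Spon2M (0.54) and lost in Spon3F (-0.59). A gain in at least 3 post-PHx tumors was found for 0.704% of all genes.

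The mean of Fzd8 was 0.67 ± 0.62 (SD, n = 6) in post-PHx and 0.16 ± 0.30 (SD, n = 6) in spontaneous tumors. The difference of 0.51 (SE 0.25, 95% interval -0.03 to 1.04) did not pass the test across all genes (limma, adjusted p = 0.842), and an exact two-sided permutation test over the 12 tumors gave p = 0.0996. The post-PHx mean alone also missed the threshold against 0 (limma, adjusted p = 0.320), with 6 of 6 tumors above 0. Without PHx2F the difference was 0.30, and with the slide as a block, or within the slide that held 2 tumors of each group, it was 0.30 as well (limma, adjusted p = 1 and 0.882). It was larger, 0.67, with sex as a term (limma, adjusted p = 0.244), and with 1 tumor left out it ran from 0.30 without PHx2F to 0.63 without PHx4M.

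The gains of Fzd8 were parts of long stretches of chromosome 18 that began at the first probe of the chromosome. Counted as consecutive probes whose mean over 21 probes stayed at or above 0.4, the stretch in PHx2F ran over 183 probes and 13.2 Mb with a mean 3.29-fold ratio. It covered 13.7 Mb at 1.74-fold in PHx3M and 11.8 Mb at 2.01-fold in PHx6F. In Spon6F it was shorter, 7.42 Mb at 1.59-fold, and ended 1.46 Mb beyond Fzd8, while the median of the whole chromosome in that tumor was -0.31. PHx1M had a lower plateau over the same end of the chromosome: the 59 probes before the Fzd8 window averaged 0.42 there, and a segment called from probe errors held Fzd8 at 0.41.

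In Spon3F and PHx4M the ratio stepped down before or at Fzd8. Spon3F had the strongest ratio at the start of the chromosome among the spontaneous tumors, 4.13-fold over 47 probes and 3.23 Mb, but the stretch ended 2.73 Mb before Fzd8, whose window mean was -0.20. In PHx4M no stretch reached 0.4, but the 59 probes before the Fzd8 window averaged 0.28 and a step lay within the window: the 10 probes before Fzd8 averaged 0.25 and the 10 probes after it -0.15. The Fzd8 probe itself was at 0.22 in PHx4M, while a segment called from probe errors, from 9111172 to 14213676, held it at 0. The window mean of 0.05 averaged across the step and does not place the gene on either side of it.

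**Figure D2:**
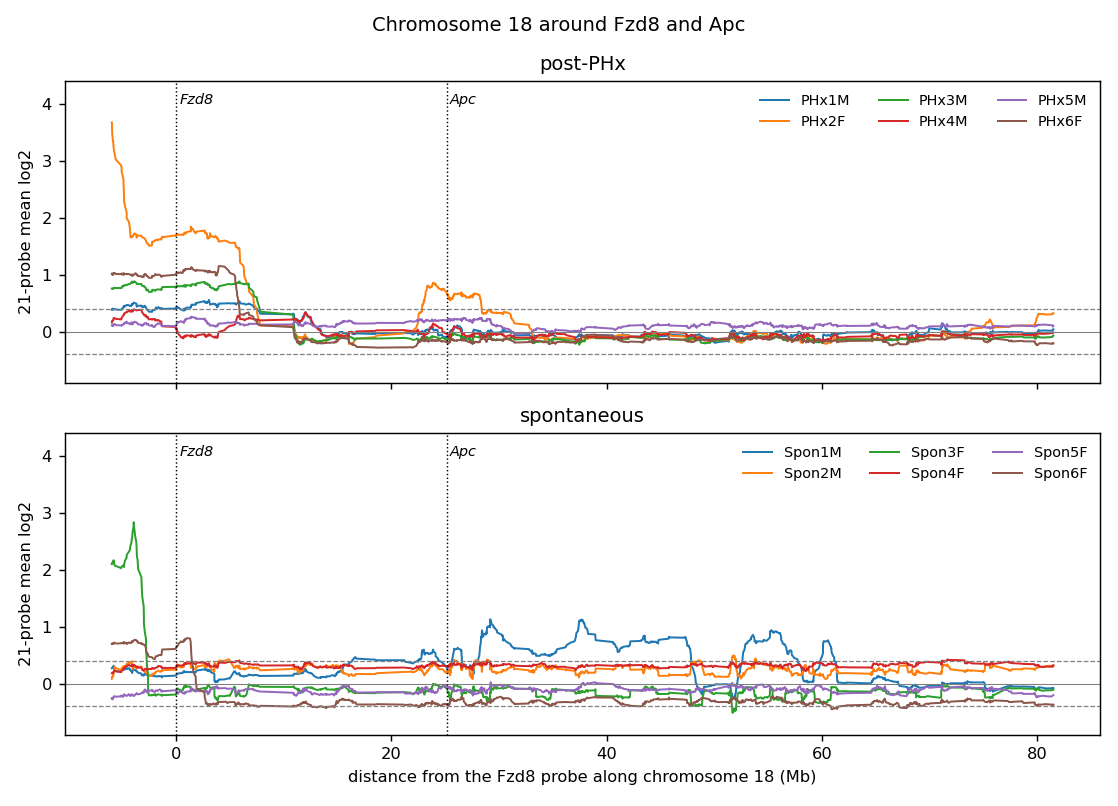
Mean log2 ratio over 21 neighboring probes (y axis) against the distance from the Fzd8 probe in Mb (x axis) on chromosome 18, with 1 line for each tumor, post-PHx above and spontaneous below; dotted lines mark Fzd8 and Apc and dashed lines 0.4 and -0.4. In PHx2F, PHx3M, PHx6F and Spon6F a raised stretch from the first probe covers Fzd8, in Spon3F it stops 2.73 Mb short of Fzd8, and in PHx2F a separate raised stretch covers Apc.

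Lgr5, a receptor of R-spondins that strengthens Wnt signaling and marks pericentral hepatocytes, stayed close to 0. Its 3 probes lie between 114870647 and 114958233 on chromosome 10. The window mean ranged from -0.01 to 0.08 (median 0.03) in post-PHx and from -0.12 in Spon3F to 0.16 in Spon4F (median 0.01) in spontaneous tumors. The groups overlapped, and the difference of 0.02 (95% interval -0.08 to 0.11) did not pass (limma, adjusted p = 0.962).

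Among the 4 of these 8 genes that belong to the destruction complex, Apc, the scaffold that holds beta-catenin in the complex, was the only one with a called pair. Its 2 probes lie between 34353150 and 34388828 on chromosome 18, 25.1 Mb beyond Fzd8. The window mean was 0.68 in PHx2F, 0.20 in PHx5M, -0.04 in PHx4M, -0.08 in PHx1M, -0.14 in PHx3M and -0.18 in PHx6F. In the spontaneous tumors it was 0.32 in Spon4F, 0.28 in Spon1M, 0.21 in Spon2M, -0.06 in Spon5F, -0.07 in Spon3F and -0.37 in Spon6F. Apc was gained in PHx2F alone, the spontaneous tumors lay on both sides of 0, and the groups overlapped. The difference between the group means was 0.02 (SE 0.15, 95% interval -0.31 to 0.35, limma, adjusted p = 0.987), and it turned to -0.10 without PHx2F. With the slide as a block and within the shared slide it was 0.23 (limma, adjusted p = 1 and 0.854).

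The gain of Apc in PHx2F was a stretch of its own. It ran from 32067622 to 37610878 on chromosome 18, over 169 probes and 5.54 Mb at 1.56-fold, and also held the ligand gene Wnt8a. Between the windows of Fzd8 and Apc, 280 probes had a median of 0.33 in this tumor. They include probes of both gained stretches, so this is not the median of the gap between the stretches. In the 3 other tumors with a gained Fzd8, Apc was at -0.14 (PHx3M), -0.18 (PHx6F) and -0.37 (Spon6F), so that the ratio of Apc was lower than that of Fzd8 by between 0.91 and 1.19 on the log2 scale. In Spon1M, the value of Apc was below those further along the chromosome: 415 of the 830 probes beyond the Apc window had a mean over 21 probes of at least 0.4, with a highest value of 1.13. In Spon4F and Spon6F the value of Apc was close to that of its whole chromosome, whose medians were 0.32 and -0.31.

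Axin1, the scaffold that limits the assembly of the destruction complex, was not called in any tumor. Its 2 probes lie between 25881365 and 25922563 on chromosome 17. The window mean ranged from -0.11 in PHx6F to 0.07 in PHx2F (median 0.02) and from -0.15 in Spon6F to 0.07 in Spon1M (median -0.04). The groups overlapped, with a difference of 0.05 (95% interval -0.04 to 0.15, limma, adjusted p = 0.935).

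Axin2, which shares the role of Axin1 and is itself a target gene of the pathway, was also uncalled. Its 3 probes lie between 108742229 and 108765817 on chromosome 11. The post-PHx tumors ranged from -0.08 to -0.02 (median -0.05), all 6 below 0. The spontaneous tumors ran from -0.22 in Spon3F to 0.14 in Spon2M (median -0.09) and enclosed the post-PHx range. The difference was 0.01 (95% interval -0.11 to 0.13, limma, adjusted p = 0.986).

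The spread of Axin2 in the spontaneous tumors went with 1 probe. The middle probe, at chr11:108765572-108765629, was at -1.90 in Spon1M, 2.14 in Spon2M and -3.01 in Spon3F, and within 0.4 of 0 in the other 9 tumors. The next probe, 186 bases further, was at 0.01 in Spon1M and 0.38 in Spon2M and was marked as an outlier by the scanner software in Spon3F. Without the middle probe the window mean of Axin2 was -0.05 in Spon1M, 0.05 in Spon2M and -0.09 in Spon3F. These are the 3 tumors with the many isolated probes described above. Relative to the median signal of each array, the middle probe was at 1.81 (liver) and 0.49 (tumor) in Spon1M. It was at 1.795 and 0.23 in Spon3F, and at 0.41 and 1.81 in Spon2M, where the liver signal was the lower one. Both signals were below that median in Spon4F (0.37 and 0.42) and PHx4M (0.56 and 0.51). In the remaining tumors they ranged from 0.98 (PHx2F, tumor) to 2.103 (Spon5F, tumor). The cause of these signals was not tested.

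**Figure D3:**
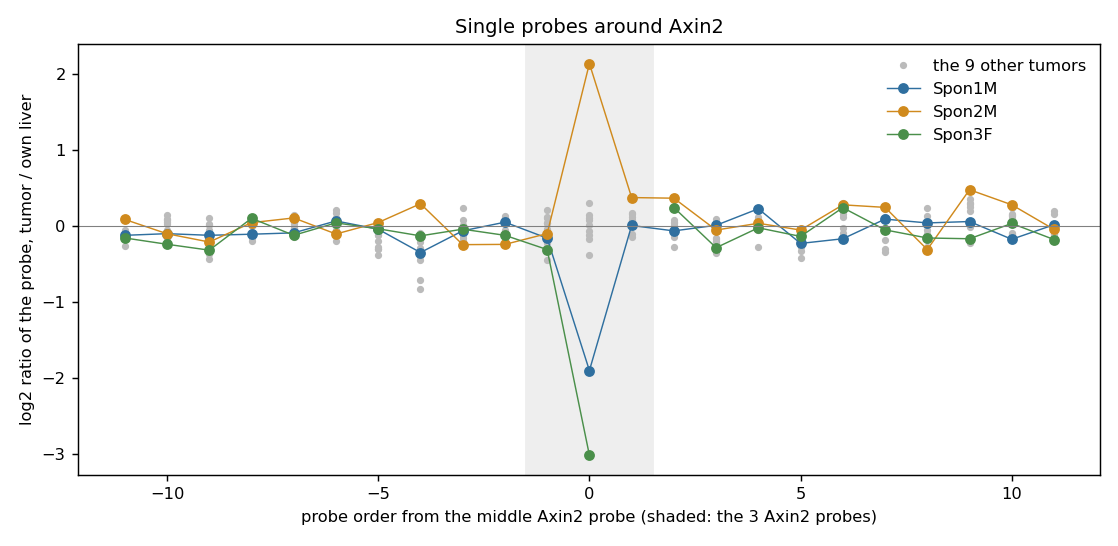
Log2 ratio of each probe (y axis) of the Axin2 window in their order along chromosome 11 (x axis), for Spon1M, Spon2M and Spon3F in color and the other 9 tumors in gray; the shaded band holds the 3 Axin2 probes. The middle Axin2 probe is at -1.90, 2.14 and -3.01 in the colored tumors. The adjacent probes with a value lie within 0.4 of 0, and the following probe of Spon3F was dropped as an outlier.

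Gsk3b, the kinase that phosphorylates beta-catenin in the complex, had its highest value in Spon2M. Its 2 probes lie between 38026284 and 38063623 on chromosome 16. The post-PHx tumors ranged from -0.02 to 0.09 (median 0.03). The spontaneous tumors ranged from -0.03 in Spon4F and Spon3F to 0.13 in Spon5F and 0.29 in Spon2M (median 0.05), and the median of the whole chromosome in Spon2M was 0.26. The groups overlapped, with a difference of -0.04 (95% interval -0.16 to 0.07, limma, adjusted p = 0.958), which was -0.00096 without Spon2M.

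Ctnnb1, which encodes beta-catenin, the effector of the pathway, was at the ratio of the liver in the post-PHx tumors. Its 2 probes lie between 120787894 and 120799786 on chromosome 9. The window mean was 0.08 in PHx2F, 0.04 in PHx5M, 0.02 in PHx1M, 0.01 in PHx6F, 0.00 in PHx4M and -0.05 in PHx3M. In the spontaneous tumors it was 0.20 in Spon1M, 0.14 in Spon4F, 0.06 in Spon5F, 0.00 in Spon6F, -0.04 in Spon2M and -0.24 in Spon3F. The post-PHx values fell inside the range of the spontaneous ones. In Spon3F the median of the probes in the window was -0.08, and the standard error over them was 0.13. The window median was farther from 0 than the mean in Spon2M (-0.17) and Spon5F (0.16). The difference between the group means was -0.0042 (SE 0.06, 95% interval -0.14 to 0.13, limma, adjusted p = 0.994).

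Tcf7l2, the nuclear factor through which beta-catenin acts on many target genes, had the smallest unadjusted p of the 8 genes between the groups. Its 3 probes lie between 55879844 and 55935731 on chromosome 19. The window mean was 0.05 in PHx2F, 0.03 in PHx6F, 0.02 in PHx5M and PHx4M, and 0.01 in PHx3M and PHx1M. In the spontaneous tumors it was 0.07 in Spon5F, -0.01 in Spon3F, -0.07 in Spon4F, -0.15 in Spon6F, -0.24 in Spon1M and -0.44 in Spon2M. All post-PHx tumors were above 0 and 5 of 6 spontaneous tumors were below it, but Spon5F was above all post-PHx tumors, so that the groups overlapped. The means were 0.02 ± 0.01 (SD, n = 6) and -0.14 ± 0.18 (SD, n = 6).

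The difference of 0.16 for Tcf7l2 (SE 0.07, 95% interval 0.01 to 0.31) did not pass after adjustment over all genes (limma, p = 0.0353, adjusted p = 0.743), and the exact two-sided permutation test gave p = 0.0390. It was 0.07 with the slide as a block and within the shared slide (limma, adjusted p = 1 and 0.867), and 0.22 with sex as a term (limma, adjusted p = 0.227). With 1 tumor left out it ran from 0.10 without Spon2M to 0.21 without Spon5F. An unadjusted p under 0.05 was reached by Tcf7l2 alone among the 8 genes, by 6.44% of all genes and by 90.8% of the genes of chromosome 19. The low values followed the whole chromosome, whose medians were -0.15 in Spon6F, -0.26 in Spon1M and -0.42 in Spon2M. In Spon2M the stretch at or below -0.4 over Tcf7l2 held 15 probes and 0.702 Mb, and a segment called from probe errors over 335 probes placed the gene at -0.39, just short of a loss.

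Across all 8 genes, the window was also set against the median of its own chromosome. The window mean was above that median by at least 0.4 in 5 pairs, 4 for Fzd8 and 1 for Apc, and for the other 6 genes the distance was at most 0.208 in either direction. The share of such pairs over all genes was not counted, so whether these are few or many is not known. Within the window, the probes of the gene itself were compared with the flanking probes over the 12 tumors: 0 of the 8 genes differed (limma, adjusted p of 0.136 or more), while 12.8% of all genes were higher and 11.1% lower than their flanks. The smallest adjusted p was that of Gsk3b, whose probes were 0.08 lower than the flanks on the log2 scale.

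**Figure D4:**
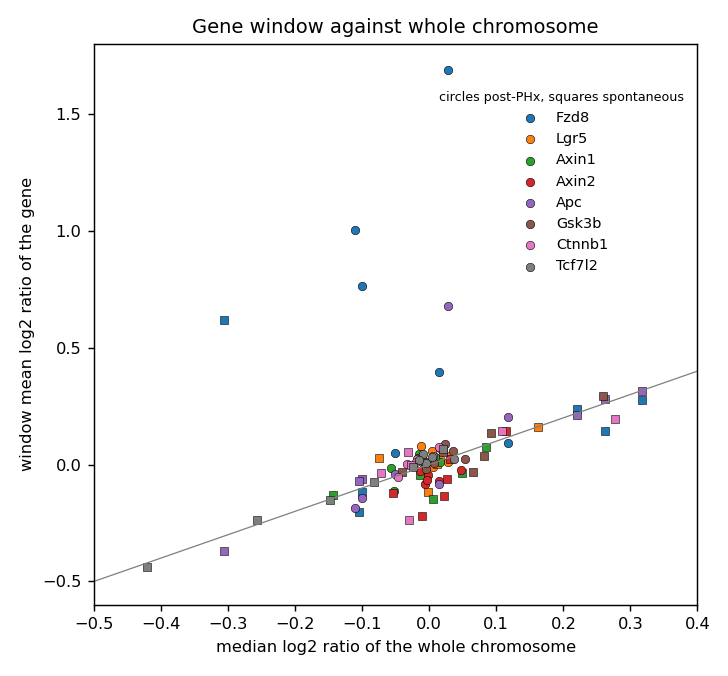
Window mean log2 ratio of each gene (y axis) against the median log2 ratio of its chromosome (x axis), 1 point for each of the 96 pairs, with circles for post-PHx and squares for spontaneous tumors; the line marks equal values. Most points follow the line, while 4 points of Fzd8 and 1 of Apc lie at least 0.4 above it.

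The group comparison as a whole gave 0 genes at an adjusted p under 0.05 in limma, with 1648 of 25580 genes (6.44%) under an unadjusted 0.05. Each group against its own liver also gave 0 genes, with 1820 (7.11%, post-PHx) and 4426 (17.3%, spontaneous) under an unadjusted 0.05, and Fzd8 in the post-PHx and Tcf7l2 in the spontaneous group were the 1 of 8 genes in each. The median difference between the groups was 0.02 over the 8 genes and 0.01 over all genes, and the median standard deviation over the 12 tumors was 0.10 for both. None of the 8 genes had groups that did not overlap, which was the case for 0.27% of all genes. With 1 array a tumor and no exchange of dyes, an effect of the dye on a probe cannot be told apart from a change in the tumors.

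The calls of the 8 genes fell on 5 tumors. PHx2F carried 2 gained genes, Fzd8 and Apc, in a tumor where 2.15% of all genes were gained. PHx3M, PHx6F and Spon6F carried Fzd8 alone, with 5.05%, 1.05% and 0.59% of all genes gained. Spon2M had the lost Tcf7l2, with 2.87% of all genes lost. PHx5M, in which 0% of all genes were gained or lost, held all 8 genes within 0.25 of 0, and so did PHx4M, Spon5F and Spon3F. In all, 84 of the 96 pairs were within 0.25.

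Genes on other chromosomes whose window means ran most like those of the called genes over the 12 tumors were named as a description, since tumors with broad changes carry many genes along. For Fzd8 these were Sdcbp (Pearson r = 0.805) and AK015249 (r = 0.789), both near the start of chromosome 4. For Apc they were Epm2a (r = 0.843) and AK040714 (r = 0.832) on chromosome 10, and for Tcf7l2 Cmpk on chromosome 4 (r = 0.927).

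The wider pathway was followed through a list of 95 further genes, of which 86 could be measured on the autosomes. Of their 1032 pairs, 12 were gained (1.16%) and 10 were lost (0.969%), both below the shares over all genes given above, and 18 of the 86 genes (20.9%, against 25.6% of all genes) were gained or lost in at least 1 tumor. Of the gained pairs, 5 were in post-PHx tumors (0.969%, against 2.2% over all genes) and 7 in spontaneous tumors (1.36% against 1.59%). All 10 lost pairs were in spontaneous tumors (1.94% against 2.05%), and 0% of all pairs were lost in post-PHx tumors. Between the groups 0 of the 86 genes passed in limma, with 11 (12.8%, against 6.44% of all genes) under an unadjusted 0.05, and the median difference was 0.02. Of these 11 genes, 7 lie on chromosome 19, where 90.8% of all genes were under an unadjusted 0.05 and the median difference was 0.17, and 3 lie on chromosome 4, where the share was 20.1% and the median difference 0.11. Genes of 1 chromosome share its shift and are not independent. By tumor, 5 of the 86 genes were gained in Spon1M (5.81%, against 6.38% of all genes), 3 in PHx4M (3.49% against 3.92%), 2 in Spon2M (2.33% against 1.71%), 1 in PHx3M (1.16% against 5.05%) and 1 in PHx2F (1.16% against 2.15%). There were 4 lost in Spon3F (4.65% against 3.03%), 3 in Spon5F (3.49% against 5.66%), 2 in Spon2M (2.33% against 2.87%) and 1 in Spon1M (1.16% against 0.645%).

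Of 23 genes of ligands and their secretion, 3 were called in at least 1 tumor (13.0%, against 25.6% of all genes), with 1.45% of their pairs gained and 0.362% lost, against 1.89% and 1.03% over all genes. Rspo4, an R-spondin that acts through Lgr5 and its relatives, was gained in PHx4M (0.61) and PHx3M (0.43), and lies on chromosome 2. Wnt8a was gained in PHx2F (0.56) together with Apc. Wnt5a, a ligand known mostly for signaling without beta-catenin, was gained in Spon1M (0.44) and lost in Spon5F (-0.44).

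Of 15 receptor genes, 3 were called (20%, against 25.6% of all genes). Of their pairs 0.556% were gained and 1.67% lost, against 1.89% and 1.03% over all genes. Fzd7, a Frizzled receptor, was gained in Spon2M (0.51) and lost in Spon1M (-0.46), on a chromosome with medians of 0.28 and -0.15. Each window held 1 of the isolated probes described above, and without it the means were 0.38 and -0.31, short of a call. Fzd3 was lost in Spon5F (-0.54), where the median of chromosome 14 was -0.47, and Lrp5, a co-receptor, was lost in Spon2M (-0.48), where chromosome 19 as a whole was at -0.42. Among the 14 secreted inhibitors, 2 were called (14.3%, against 25.6% of all genes). Of their pairs 0.595% were gained and the same share lost, against 1.89% and 1.03% over all genes. Dkk2 was gained in PHx4M (0.46) and Dkk1 was lost in Spon2M (-0.48), on the same chromosome as Lrp5 and Tcf7l2.

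Among the nuclear partners, 5 of 12 genes were called (41.7%, against 25.6% of all genes), with 2.08% of pairs gained and 1.39% lost, near the 1.89% and 1.03% over all genes. Lef1, a factor of the same family as Tcf7l2, was gained in PHx4M (0.47), as was Dkk2 further along chromosome 3. Bcl9l and Pygo1, coactivators of beta-catenin, were gained in Spon1M at 0.52 and 0.45, in a tumor where chromosome 9, which also holds Ctnnb1, had a median of 0.28. Ctnnbip1, an inhibitor of the binding of beta-catenin to Tcf factors, was lost in Spon5F (-0.44), and Tle2, a corepressor, in Spon3F (-0.48). Without the isolated probes of its window Tle2 was at -0.34, short of a call.

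Of 9 target genes, 4 were called (44.4%, against 25.6% of all genes), with 2.78% of pairs gained and 1.85% lost, against 1.89% and 1.03% over all genes. Myc had the largest value of all genes followed here, 2.13 in Spon1M, where all 21 probes of its window were at or above 0.4 and their median was 3.07, that is 8.41-fold against 4.37-fold by the mean. Its window was between -0.10 and 0.24 in the other 11 tumors. Cyp1a2, a pericentral cytochrome P450, was gained in Spon1M (0.56), Tbx3 was gained in Spon2M (0.52) and lost in Spon3F (-0.55), and Ccnd1, cyclin D1, was lost in Spon3F (-0.48). Without the isolated probes of their windows, a setting chosen after seeing the data, Tbx3 (0.32 and 0.06) and Ccnd1 (-0.23) were short of a call. Of the target genes, Myc and Cyp1a2 were then the ones still called. Of 13 genes of the destruction complex and cytoplasmic signaling, 1 was called (7.69%, against 25.6% of all genes), with 0% of pairs gained and 0.641% lost. This was Apc2, a relative of Apc, lost in Spon3F (-0.78).

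In 7 of the 22 called pairs the median of the probes was short of a call: Apc2, Tle2, Tbx3 and Ccnd1 in Spon3F, Tbx3 in Spon2M, Fzd7 in Spon1M and Dkk2 in PHx4M. In Spon3F the median over the window was -0.24 for Apc2, -0.11 for Tle2, 0.07 for Tbx3 and -0.10 for Ccnd1, and 9 of 21, 8 of 22, 6 of 22 and 6 of 19 probes were at or below -0.4. For Fzd7 6 of 21 probes were past -0.4 in Spon1M (median -0.34) and 11 of 21 past 0.4 in Spon2M (median 0.41). For Tbx3 in Spon2M 7 of 22 probes were past 0.4 (median 0.30), and for Dkk2 in PHx4M 9 of 22 (median 0.38). With the isolated probes left out, a setting chosen after seeing the data, 10 of the 12 gained and 6 of the 10 lost pairs stayed past 0.4, and those that did not were Fzd7 in both tumors, Tbx3 in both tumors, and Tle2 and Ccnd1 in Spon3F. In Spon5F, by contrast, 18 of 22 probes of Fzd3 and 13 of 21 of Ctnnbip1 were at or below -0.4.

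**Figure D5:**
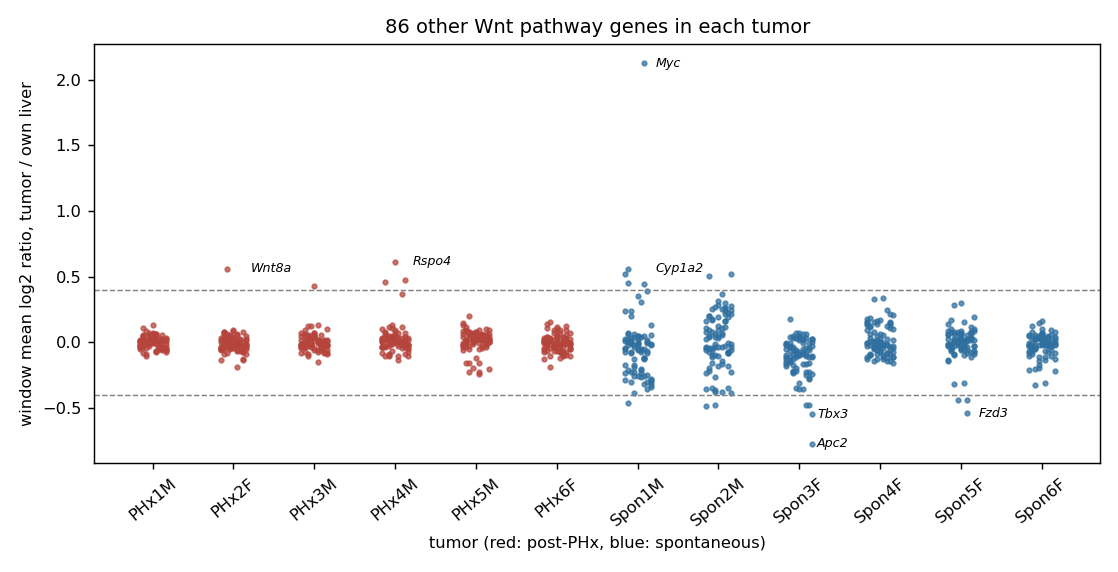
Window mean log2 ratio (y axis) of the 86 further pathway genes in each tumor (x axis), 1 point for each gene, with post-PHx tumors in red and spontaneous tumors in blue; dashed lines mark 0.4 and -0.4, and names mark the points farthest from 0. The post-PHx tumors have no point below the lower line, and Myc in Spon1M stands at 2.13.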

How the data were processed

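The authors hybridized tumor DNA (red, Cy5) and matched liver DNA (green, Cy3) to mouse arrays and deposited the Agilent Feature Extraction 10.5.1.1 output. Its deposited signal intensities are background-subtracted and dye-normalized, and its deposited log10 ratio is that of the red over the green intensity, which was recomputed for at least 99.7% of spots within 0.001. Positions are on NCBI36 (mm8). Tumor groups came from the labels, and ages from the labels and the paper.

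The log10 ratios were put on the log2 scale, outlier spots (108 to 1218 per array) dropped, spots of a probe averaged and arrays centered on the autosomal median, which left 41081 to 42160 probes. Median signal over background was 7.07 to 25.9 (green) and 3.80 to 11.9 (red). The number of arrays limits the precision. Values are window means as defined above, over names on 1 chromosome within 3 Mb. The test across genes was that of limma 3.58.1 (R 4.3.3) with Benjamini-Hochberg adjustment over 25580 genes and a threshold of 0.05. It was also run on simulated data with independent noise for each gene. The real windows share probes and shifts of whole chromosomes, which that simulation does not cover. Single genes were tested by exact permutation over 924 regroupings (smallest p 0.00216), in Python 3.11.15 with numpy 2.4.6, scipy 1.17.1 and pandas 2.3.3. Each tumor is 1 sample. The members and lists were chosen with earlier results of these data known. Further genes were named where called in at least 1 tumor, at most 20, and the 3 most alike genes on other chromosomes for each called member, of which those with a gene name are given. Older names were matched through RefSeq GRCm38.p6. Of the 95 further genes, 9 were not analysed here. Exon or intron was not assigned. Alternatives changed the background correction, centering, filters, window, threshold, caller and covariates.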

Additional observations from a re-analysis of the deposited data

How the results depend on the processing

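The gained pairs numbered 8 with own probes only (3.92% of all pairs gained), 10 at a threshold of 0.25 (4.72%), 6 with 5 flanking probes (2.05%) and by aberration segments (not run over all genes), and 3 to 5 with 1 tumor left out (3 without PHx2F). The lost pairs numbered 5 with own probes only (3.4% of all pairs lost), 2 at 0.25 (3.43%), 0 at 0.6 (0.0479%), with 5 flanking probes (1.27%) and by aberration segments, and 0 to 1 with 1 tumor left out (0 without Spon2M). limma called 0 genes between the groups under every alternative run, including the tumor number as a replicate block (0 genes). Deviations of same-numbered tumors from their group means correlated at 0.52 for number 6 and between -0.18 and -0.0049 for the other numbers. The main comparison did not use the numbers as a pairing. Against liver, post-PHx calls were 10 with normexp and 765 with own probes only; spontaneous calls were 527 with centering on the mode, 1160 with normexp, 1198 with own probes only and 0 to 851 with 1 tumor left out (851 without Spon5F). The 6130 genes apart from their flanks became 11675 with normexp. The post-PHx mean of Fzd8 passed with own probes only (0.72, limma, adjusted p = 0.0465).

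Differences near 0 turned sign. For Ctnnb1 the difference was 0.0024 with 20 and 0.018 with 5 flanking probes, 0.0052 with the mode, 0.0078 with normexp. For Apc it was -0.0093 with normexp and -0.059 with own probes only, and for Axin1 -0.054 with own probes only. For Axin2 it was -0.0015 without centering, -0.025 with the slide as a block and within the shared slide, -0.0058 with sex as a term, and -0.0031 without the middle probe (chosen after seeing the data). For Lgr5 it was -0.022 with 5 flanking probes, -0.024 with the window median, -0.0069 with normexp, -0.063 with own probes only, and -0.020 with the slide as a block and within the shared slide. The post-PHx means turned to -0.047 (Ctnnb1), -0.056 (Axin1) and -0.082 (Gsk3b) with own probes only, -0.044 (Axin1) and -0.037 (Gsk3b) with normexp, and for Axin1 to -0.013 with 5 flanking probes, -0.0058 with the window median and -0.00013 without centering. The spontaneous mean of Ctnnb1 turned to -0.012 with 5 flanking probes and -0.028 with own probes only. With 1 tumor left out, the differences ranged from -0.056 to 0.031 for Ctnnb1, -0.10 to 0.074 for Apc, -0.022 to 0.051 for Axin2 and -0.0096 to 0.045 for Lgr5, the post-PHx means from -0.050 to 0.12 for Apc and -0.0074 to 0.029 for Axin1, and the spontaneous means from -0.015 to 0.071 for Ctnnb1, -0.0021 to 0.14 for Apc and -0.014 to 0.041 for Lgr5. The difference for Axin1 was 0.029 with the slide as a block. With own probes only, the difference kept its sign but grew to 0.22 for Axin2 and -0.13 for Gsk3b. Without the middle Axin2 probe, the mean of its own probes went from -0.68 to -0.08 in Spon1M, from 0.80 to 0.14 in Spon2M and from -1.66 to -0.31 in Spon3F. The cause of the changes in this paragraph was not tested.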

Other observations

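The isolated probes of Spon1M, Spon2M and Spon3F, to which the middle Axin2 probe belongs, were counted after its values had been seen. An isolated probe stood at least 1.5 from 0 on the log2 scale, with both neighbors within 0.5. There were 220 in Spon1M, all low, 228 in Spon2M, of which 227 were high, and 751 in Spon3F, all low, while Spon4F on the same slide had 0. Spon1M and Spon2M shared 145 such probes (65.9% of those of Spon1M and 63.6% of those of Spon2M), each with opposite signs. Spon1M and Spon3F shared 136 (61.8% and 18.1%), each with the same sign. Spon2M and Spon3F shared 142 (62.3% and 18.9%), each with opposite signs.

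The second Apc probe, at chr18:34388769-34388828, was at -1.31 in PHx1M and -1.16 in Spon6F, where the first Apc probe was at 0.03 and -0.19. In both tumors its red signal was not well above background, and the window means of Apc there were -0.08 and -0.37.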
